A study of Mus musculus with 24 samples.

Results

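The comparison set 2 livers of wild-type mice given TCPOBOP directly against 2 livers of wild-type mice given phenobarbital (spelled phenobarbitol in the labels). These 4 arrays of the study's 24 were chosen by their sample titles. Both groups were female mice of mixed C57BL/6x129Sv background that carry mouse CAR and no transgene, and their age is not given in the sources used here. TCPOBOP was given intraperitoneally as a single dose of 3 mg/kg on day 1, and corn oil followed on the other 2 days. Phenobarbital was given at 100 mg/kg on each of 3 days, and all livers were taken 6 h after the last injection. The groups therefore differed in dose and schedule as well as in compound, and these cannot be told apart. The same comparison was made in CAR knockout mice, which lack mouse CAR, and in human CAR mice, whose knockout background carries human CAR expressed from the albumin promoter of the mouse. Wild-type corn oil arrays gave the level without either compound, and both treatments were tested against them. Each group held 2 mice with 1 Affymetrix array a mouse, so precision is limited throughout.

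The product of Nr1i3 is the constitutive androstane receptor, CAR, a nuclear receptor of hepatocytes that switches on genes for drug oxidation, conjugation and export. TCPOBOP binds mouse CAR directly, whereas phenobarbital does not bind it and instead sends it into the nucleus through signalling that starts at the epidermal growth factor receptor. TCPOBOP is also known as a strong mitogen of mouse liver. The study's labels describe both compounds as activators of mouse CAR, and the comparison asks where the livers differed between them.

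Values are RMA log2 expression, so a difference of 1 is a doubling. Differences are TCPOBOP minus phenobarbital with the standard error (SE) of a limma fit, and a gene was called when its Benjamini-Hochberg adjusted p over 9167 tested genes was under 0.05. Nr1i3 lay between 6.84 and 7.98 on the 4 arrays compared, and at 5.03 to 5.60 on the 8 knockout and human CAR arrays of the same treatments. Phenobarbital replicate 2 of knockout and phenobarbital replicate 1 of human CAR mice stood apart, with median correlations to the other arrays of 0.957 and 0.935, against 0.960 to 0.982 for the other 22. The 2 wild-type TCPOBOP arrays had the lowest of those 22 values, 0.963 and 0.960. Hepatocyte markers averaged 11.69 and 11.67 with TCPOBOP and 11.81 and 11.80 with phenobarbital. That list holds Alb, which read 13.09 and 13.02 with TCPOBOP and 13.32 and 13.29 with phenobarbital. In whole liver, fewer cells of a type and less RNA per cell cannot be told apart.

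Of 9167 genes, 117 were called, which is 1.28%. TCPOBOP livers were higher than phenobarbital livers in 79 genes (0.862%) and lower in 38 (0.415%). Of the 79, 13 entered the test only because both wild-type TCPOBOP arrays were above the limit for dim genes, against 0 of the 38. The differences ran from 0.40 to 3.07 among the higher and from 0.48 to 3.00 in size among the lower genes, and 28 and 15 of them reached 2-fold. In each of the 117 genes both TCPOBOP arrays lay on one side of both phenobarbital arrays. With 2 arrays a side such separation arises easily without a difference, and a call nearly implies it. Its share over all genes is not given, so here and below it describes values and adds no support. The count fell to 70 without TCPOBOP replicate 1, 50 without TCPOBOP replicate 2, 34 without phenobarbital replicate 1 and 59 without phenobarbital replicate 2. 32 genes were called in all 4 of these fits, 28 higher and 4 lower. Of the called genes named below, Bco1, Cenpf, Hspa5, Mbd1, Vim, Abhd14b, Acaa1b, Asgr2, Ces1f, Il1rap, Pm20d1 and Slc17a2 were called in 0 of these 4 limma fits. Ccna2, Fmo5, Mcm4, Rrm1, Abca8a, Aox3, Cfhr2, Cyp2c38, Cyp2g1, Igf1, Kdm5a and Nr1i3 were called in 1 of the 4. The count rose to 234 when the 2 arrays that stood apart were left out.

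**Figure D1:**
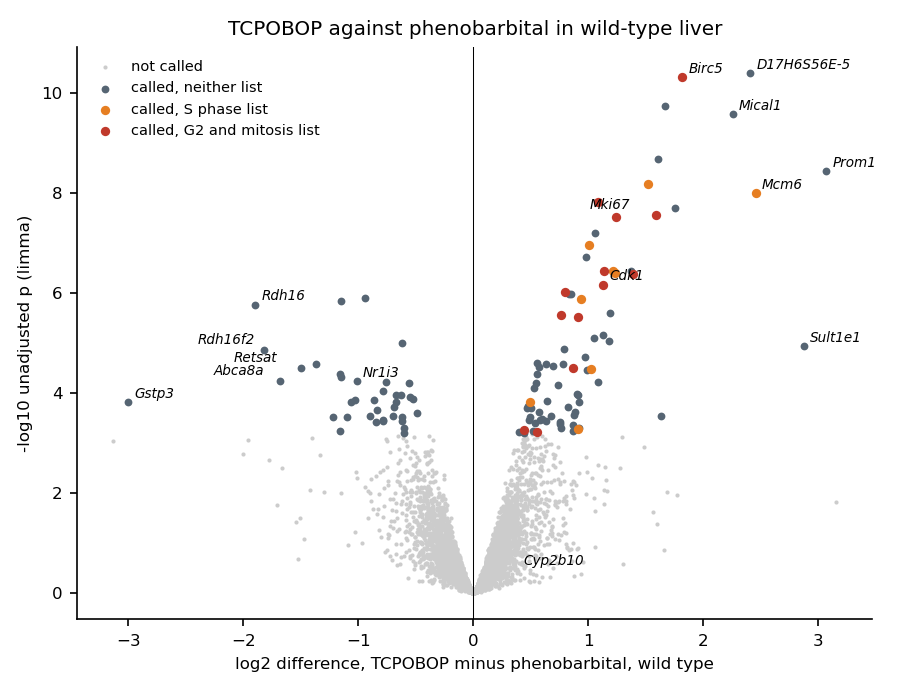
Each point is 1 of 9167 genes. The horizontal axis is the log2 difference, TCPOBOP minus phenobarbital, and the vertical axis the -log10 unadjusted p of the limma fit. The 117 called genes are coloured by list, and S phase and mitosis genes lie on the right, with Prom1 at 3.07 and Mcm6 at 2.46, while Cyp2b10 lies near 0 at 0.38.

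The largest called rise was that of Prom1, a membrane glycoprotein used as a marker of progenitor and bile duct cells. Prom1 read 8.13 and 7.81 with TCPOBOP, 4.35 and 5.45 with phenobarbital and 3.95 and 4.24 with corn oil. The lowest TCPOBOP array was above the highest phenobarbital array by more than the gap between the phenobarbital mice. The difference was 3.07 (SE 0.27, adjusted p = 5.55e-06), an 8.40-fold higher level with a 95% interval of 2.50 to 3.64 on the log2 scale. Mki67, the proliferation antigen Ki-67, read 5.08 and 5.39 with TCPOBOP, 3.57 and 3.72 with phenobarbital and 3.47 and 3.25 with corn oil, a difference of 1.59 (SE 0.16, adjusted p = 2.28e-05). Cdk1, the kinase that drives entry into mitosis, read 6.80 and 6.71 with TCPOBOP, 5.54 and 5.70 with phenobarbital and 4.92 and 4.91 with corn oil, a difference of 1.13 (SE 0.15, adjusted p = 0.000299). Both proliferation genes were clear of overlap, and Cdk1 was also above corn oil with phenobarbital (adjusted p = 0.0232). Mki67 and 13 other tested genes were above the limit for dim genes on the 2 wild-type TCPOBOP arrays alone, 13 of the 14 being among the called rises, so they entered the test through the group in which they were high. Signal near background is compressed on arrays, which can understate the folds of such genes. For these reasons list counts below come from a fit to all 12393 genes with a probe set, unless the filter is named. In that fit 137 genes were called (1.11%), 99 higher (0.799%) and 38 lower (0.307%). All 117 genes called with the filter were among the 137. Over all 12393 genes 52.1% of differences were positive and the median was 0.0074.

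**Figure D2:**
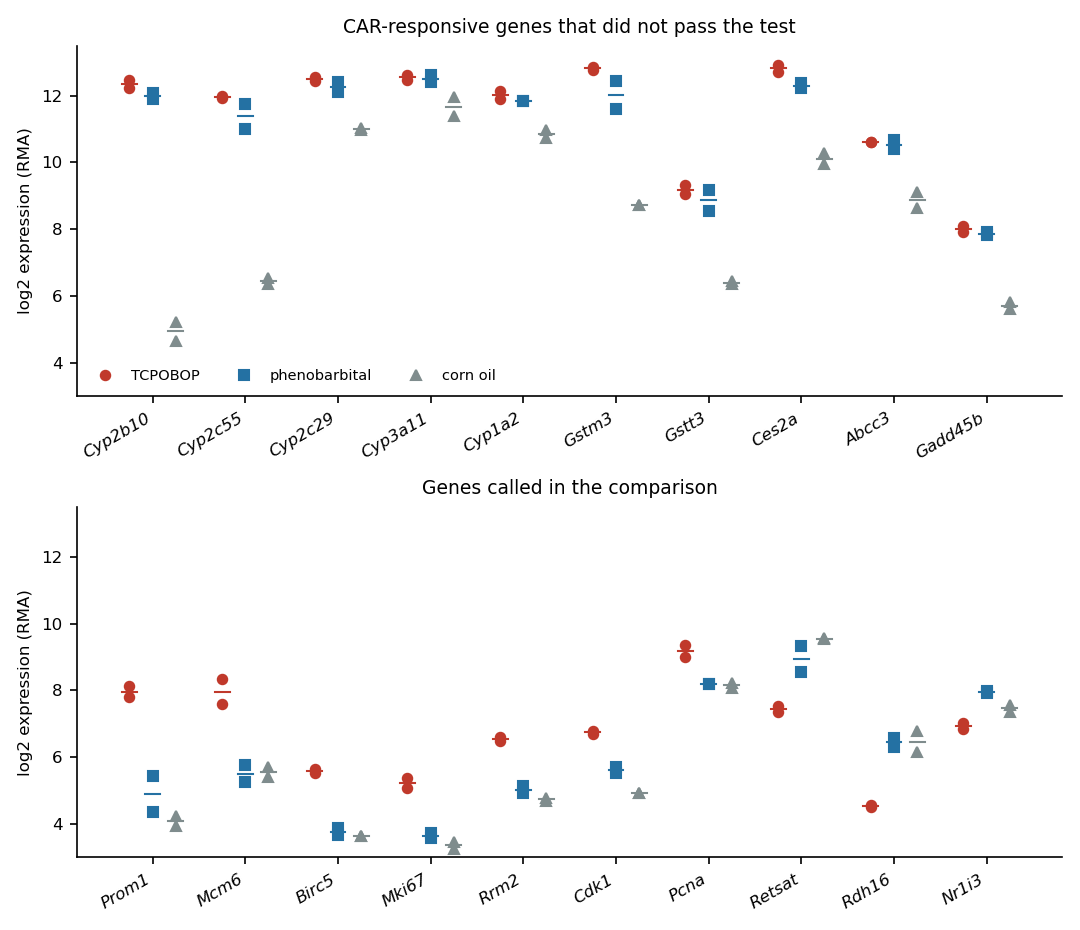
Each point is 1 array on the RMA log2 scale, with bars at the mean of the 2 mice, for TCPOBOP, phenobarbital and corn oil in that order. The upper panel shows CAR-responsive genes that did not pass the test between the treatments, such as Cyp2b10 at 12.24 and 12.48, 11.88 and 12.06, and 4.66 and 5.22. For Gstm3 and Ces2a the TCPOBOP points lie above the phenobarbital points without overlap. In the lower panel the TCPOBOP points are clear of the phenobarbital points.

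Several genes of DNA replication were higher with TCPOBOP. Of 47 measured S phase genes 11 were called higher and 0 lower, against 0.799% and 0.307% of all genes. Of the 47 differences 43 were positive and the median was 0.40. An unadjusted p under 0.05 of the limma fit in the higher direction was met by 28, against 5.42% of all genes. The filter for dim genes was passed by 34 of the 47, 2 of them through the TCPOBOP arrays alone. The MCM proteins, which form the helicase that opens DNA at replication origins, supplied 5 of the called genes, Mcm2, Mcm4, Mcm5, Mcm6 and Mcm7. Mcm6 read 7.59 and 8.33 with TCPOBOP, against 5.24 and 5.76 with phenobarbital and 5.70 and 5.41 with corn oil. Its difference of 2.46 (SE 0.23, adjusted p = 1.14e-05) was the largest of the list when each gene is read by its brightest probe set. The other probe set of Mcm6, below the limit for dim genes, differed by 0.93. The phenobarbital livers lay at the level of the corn oil livers for this gene. Mcm5 differed by 1.23, Mcm7 by 1.22, Mcm2 by 0.94 and Mcm4 by 0.91. The other probe sets of Mcm2 and Mcm4, below the limit for dim genes, differed by 0.29 and 0.45. The other 3 probe sets of Mcm7 differed by 0.72, 0.56 and 0.24. Rrm2 and Rrm1, the subunits of the reductase that makes deoxynucleotides, differed by 1.52 and 0.50. Other probe sets of Rrm2 gave 2.74 and 2.33. Pcna, the sliding clamp of DNA polymerases, read 9.01 and 9.37 with TCPOBOP, 8.18 and 8.18 with phenobarbital and 8.22 and 8.08 with corn oil, a difference of 1.01 (SE 0.11, adjusted p = 7.07e-05). Ccna2, the cyclin of S phase and G2, differed by 1.02 (adjusted p = 0.00638), with 7.03 and 6.19 in TCPOBOP livers against 5.56 and 5.62 in phenobarbital livers.

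A number of genes of G2 and mitosis were higher too. Of 63 measured members 21 were called higher and 0 lower, against 0.799% and 0.307% of all genes. Of the 63 differences 60 were positive and the median was 0.40. Only 37 of the 63 passed the filter for dim genes, 7 of them through the TCPOBOP arrays alone. Birc5, the survivin subunit of the chromosomal passenger complex, read 5.54 and 5.64 with TCPOBOP, 3.66 and 3.88 with phenobarbital and 3.65 and 3.65 with corn oil, a difference of 1.82 (SE 0.12, adjusted p = 2.24e-07). Stmn1, which destabilises microtubules, differed by 1.39, Ccnb2, a mitotic cyclin, by 1.24, the condensin subunits Smc4 and Ncapd2 by 1.13 and 0.76, and the mitotic kinase Pbk by 1.08. Other probe sets, below the limit for dim genes, gave 0.48 for Stmn1 and 0.41 and 0.28 for Smc4. Hmmr, a spindle protein, differed by 0.91, Ube2c, the ubiquitin-conjugating enzyme of the anaphase-promoting complex, by 0.87, Cdca5, which holds sister chromatids together, by 0.80 and the kinetochore protein Cenpf by 0.44. The other probe set of Cenpf differed by 0.06 (SE 0.12). Other probe sets gave 0.43 for Cdca5 and, below the limit for dim genes, 0.40, 0.54 and 0.57 for Hmmr. Ccnb2 and Ube2c were also called above corn oil with phenobarbital (adjusted p of 0.0149 and 0.0238).

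The mean log2 level over all measured members separated the groups mouse by mouse. For S phase genes it was 5.60 and 5.70 with TCPOBOP, 5.19 and 5.20 with phenobarbital and 5.16 and 5.05 with corn oil. For G2 and mitosis genes it was 5.45 and 5.34 with TCPOBOP, 4.87 and 4.91 with phenobarbital and 4.78 and 4.71 with corn oil. Without 1 of the 4 wild-type arrays the S phase count was 6 to 11 and the G2 and mitosis count 13 to 15. The lowest S phase counts were 6 without phenobarbital replicate 1 and 7 without TCPOBOP replicate 2. The lowest mitosis count was 13 without phenobarbital replicate 1, and it was 14 without TCPOBOP replicate 1 and 14 without phenobarbital replicate 2. Without the 2 arrays that stood apart the counts were 13 and 21.

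**Figure D3:**
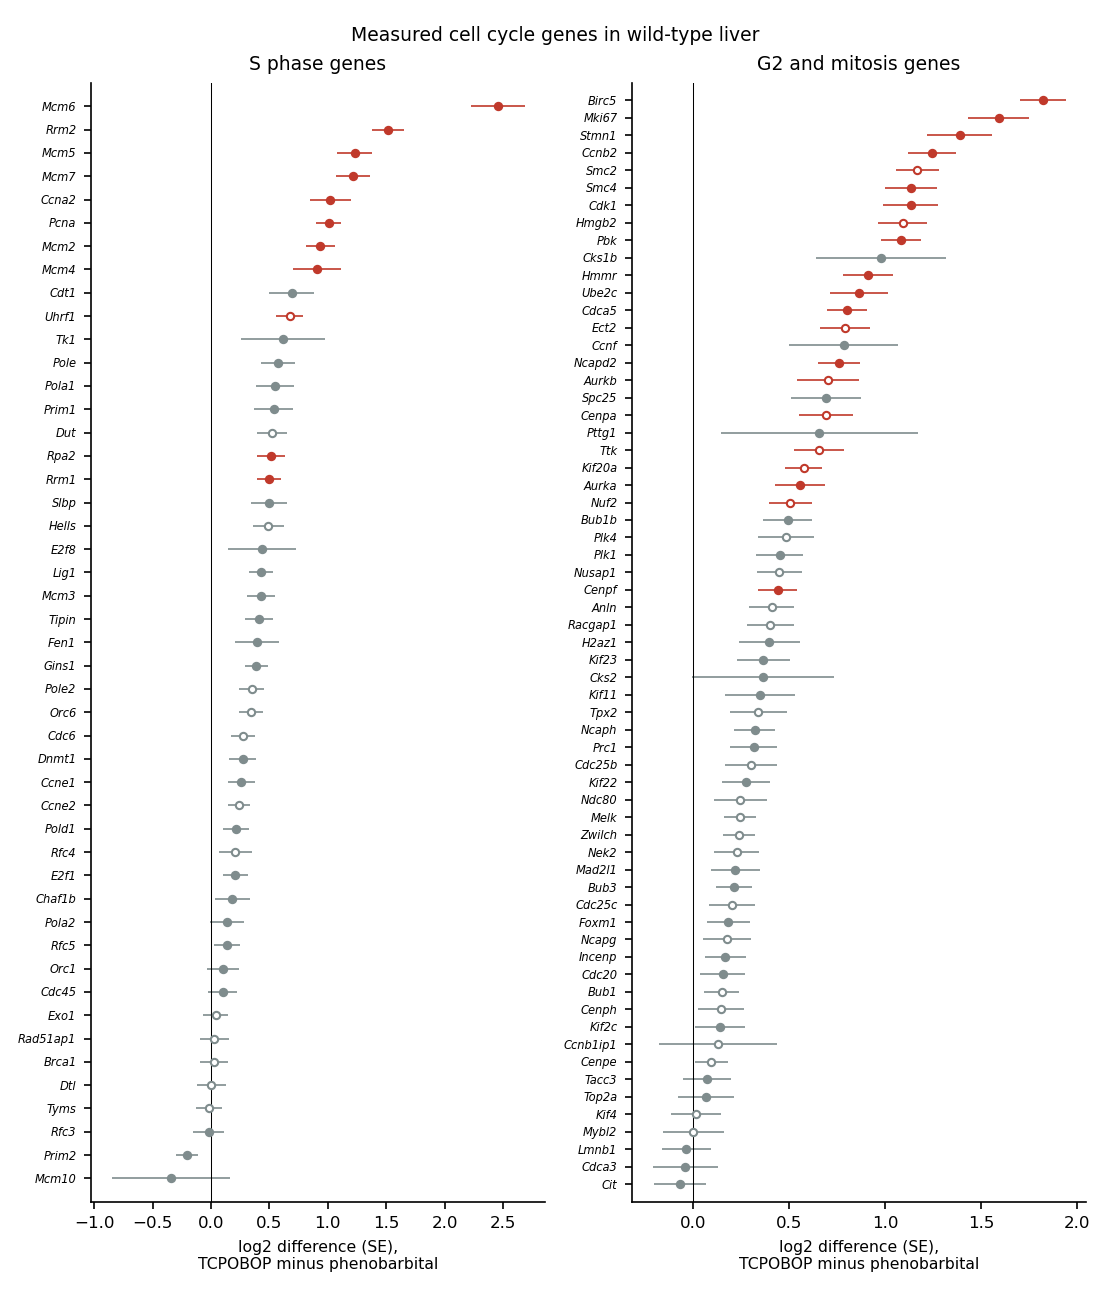
Points are log2 differences, TCPOBOP minus phenobarbital in wild type, with bars of 1 SE, for the 47 S phase genes and 63 G2 and mitosis genes measured, from the fit to all 12393 genes. Red points are called, and open points did not pass the filter for dim genes. 43 and 60 of the points lie right of 0.

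Of 36 measured G1 and growth control genes, which act where cells commit to the cycle, 1 was called higher and 0 lower. The shares over all genes were 0.799% and 0.307%. In this list 24 differences were positive and the median was 0.07. Ccnd1, the cyclin D1 of G1, read 7.47 and 8.04 with TCPOBOP, 6.88 and 6.96 with phenobarbital and 6.83 and 6.66 with corn oil. Its arrays did not overlap, but its difference of 0.84 (95% interval 0.14 to 1.53) had an adjusted p of 0.315. Other probe sets of Ccnd1 gave 0.31 and 0.72. Myc differed by 0.01 (interval -0.40 to 0.43) and the cell cycle inhibitor Cdkn1a by 0.27 (interval -0.81 to 1.35). Of 31 measured epidermal growth factor receptor ligands, receptors and feedback genes 0 were called in either direction in the limma fit, and 1 had an unadjusted p under 0.05.

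Promoters are shown for 5 of the called replication and mitosis genes, since members of both lists moved together. Each is 1 window from RefSeq, build GRCm38.p6, with 250 bases before and 50 after the start, printed 5′ to 3′ on the gene's strand. Capitals mark 3 motifs searched on both strands: TTTGAA, the cell cycle homology region (CHR), CCAAT, the CCAAT box, and the E2F-type octamers TTTGGCGC, TTTCCCGC, TTTCGCGC and TTTGCCGC, which can overlap one another. Mcm6 lies at chr1:128359656-128359955 (minus), Mcm5 at chr8:75109259-75109558 (plus), Cdk1 at chr10:69352863-69353162 (minus), Ccnb2 at chr9:70421505-70421804 (minus) and Mki67 at chr7:135716330-135716629 (minus).
Mcm6: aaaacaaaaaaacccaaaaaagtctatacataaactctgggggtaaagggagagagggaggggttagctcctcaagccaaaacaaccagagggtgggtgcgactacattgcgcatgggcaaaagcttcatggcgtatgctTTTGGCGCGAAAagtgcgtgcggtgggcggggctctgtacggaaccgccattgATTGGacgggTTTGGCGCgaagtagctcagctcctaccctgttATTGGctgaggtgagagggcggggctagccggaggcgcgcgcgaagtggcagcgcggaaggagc
Mcm5: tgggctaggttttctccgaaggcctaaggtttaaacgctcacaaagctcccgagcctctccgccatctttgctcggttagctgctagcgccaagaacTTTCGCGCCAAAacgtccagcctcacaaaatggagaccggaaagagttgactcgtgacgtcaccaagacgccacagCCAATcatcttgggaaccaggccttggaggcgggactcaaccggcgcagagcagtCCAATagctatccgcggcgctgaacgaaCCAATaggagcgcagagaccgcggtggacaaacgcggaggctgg
Cdk1: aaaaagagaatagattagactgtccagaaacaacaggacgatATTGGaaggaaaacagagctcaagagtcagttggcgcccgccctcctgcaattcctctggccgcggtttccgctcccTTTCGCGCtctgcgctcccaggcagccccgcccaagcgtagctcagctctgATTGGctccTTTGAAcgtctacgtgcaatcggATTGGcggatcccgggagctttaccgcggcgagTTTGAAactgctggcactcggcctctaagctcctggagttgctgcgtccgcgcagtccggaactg
Ccnb2: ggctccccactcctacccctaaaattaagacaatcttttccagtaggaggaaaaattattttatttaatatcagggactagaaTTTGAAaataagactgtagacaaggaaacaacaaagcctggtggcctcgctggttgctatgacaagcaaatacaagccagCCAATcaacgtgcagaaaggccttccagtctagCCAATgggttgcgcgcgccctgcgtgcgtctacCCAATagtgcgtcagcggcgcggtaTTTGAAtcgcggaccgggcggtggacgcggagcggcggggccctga
Mki67: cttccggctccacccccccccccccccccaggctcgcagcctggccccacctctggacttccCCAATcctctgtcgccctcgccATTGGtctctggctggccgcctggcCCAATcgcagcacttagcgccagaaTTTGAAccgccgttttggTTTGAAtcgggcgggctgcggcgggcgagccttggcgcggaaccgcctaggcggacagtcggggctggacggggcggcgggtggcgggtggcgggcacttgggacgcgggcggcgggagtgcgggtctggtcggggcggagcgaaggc
The Mcm6 and Mcm5 windows held 3 and 2 E2F matches and 0 CHR matches, and Cdk1, Ccnb2 and Mki67 each held 2 CHR matches, with 1 E2F match in Cdk1. The window of Birc5, not printed, held 0 matches to any of the 3 motifs. Of the 21 called G2 and mitosis genes 16 matched the promoter table with 17 windows, and CHR was in 15 of them, 88.2%, CCAAT in 14, 82.4%, and an E2F octamer in 2, 11.8%. Of the 11 called S phase genes 9 matched with 11 windows, with CHR in 1, 9.09%, CCAAT in 11 and an E2F octamer in 4, 36.4%. Among all 32851 windows the shares were 17.9% for CHR, 37.4% for CCAAT and 2.26% for an E2F octamer. A match describes letters in the window and is no evidence of binding.

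Beside the cell cycle lists, several large rises had no common role. Sult1e1, the estrogen sulfotransferase, read 6.60 and 8.93 with TCPOBOP, against 4.56 and 5.22 with phenobarbital and 4.38 and 4.49 with corn oil, so its mice were far apart within the TCPOBOP group. Its difference was 2.87 (SE 0.46, adjusted p = 0.00292). Probe sets of types that can bind related transcripts read 37 of the 117 called genes, Mical1 and Stmn1 among them. D17H6S56E-5 differed by 2.41 (SE 0.16, adjusted p = 2.24e-07), with 8.45 and 8.28 against 5.83 and 6.07. Mical1, which oxidises actin filaments, differed by 2.26, Atr, a kinase of the DNA damage checkpoint, by 1.75, Pnliprp1, a pancreatic lipase relative, by 1.67, Meig1, a gene of male germ cells, by 1.61 and Fhit, a diadenosine triphosphate hydrolase, by 1.37. Fhit and Meig1 were also called above corn oil with phenobarbital (adjusted p of 0.00161 and 0.034). Mbd1, which binds methylated DNA, read 7.71 and 8.19 with TCPOBOP, 6.30 and 6.34 with phenobarbital and 7.54 and 7.53 with corn oil, so the phenobarbital livers were the ones apart from corn oil. Its other 4 probe sets gave 0.43 to 0.87 against 1.63 for the brightest. Other called rises were those of the keratin Krt4 at 1.19, the tubulin Tuba8 at 1.13, the membrane repair protein Dysf at 1.06, the filament protein Vim at 0.88 and Anxa2, a calcium-dependent membrane binder, at 1.18. Anxa2's other 2 probe sets differed by 0.06 and 0.20.

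Of 27 measured markers of bile duct and progenitor cells, Prom1 was the only 1 called higher and 0 were lower, against 0.799% and 0.307% of all genes. Of the 27 differences 20 were positive, against 52.1% of all genes, and the median was 0.09. Krt8 and Krt18, keratins of hepatocytes as well as ducts, differed by 1.48 (adjusted p = 0.0721) and 1.04 (adjusted p = 0.168) without overlap of arrays. The defining duct markers lay low in both groups: Krt19 read 5.30 and 5.21 with TCPOBOP and 5.11 and 5.23 with phenobarbital, Epcam 4.63 and 4.37 against 4.27 and 4.43, Krt7 4.03 and 4.20 against 4.19 and 4.01, and Sox9 5.36 and 5.08 against 5.30 and 5.27. Markers of Kupffer cells, the macrophages of liver, read higher on average. Of 18 measured 0 were called in the limma fit and 3 had an unadjusted p under 0.05, but 16 differences were positive, with a median of 0.37. The same lean was present in the other genotypes, with 16 positive in knockout (median 0.25) and 16 in human CAR mice (median 0.30). In wild type the mean of that list was 7.71 and 7.47 with TCPOBOP, 7.31 and 7.18 with phenobarbital and 7.91 and 7.54 with corn oil. The wild-type phenobarbital livers thus lay below both other groups. Clec4f, which defines Kupffer cells, read 8.43 and 8.04 with TCPOBOP and 7.84 and 7.70 with phenobarbital. The part of these cells in the cell cycle differences was not tested. Of the stellate cell markers 1 of 17 was called higher, Vim, and of hepatocyte markers 1 of 20 lower, the asialoglycoprotein receptor subunit Asgr2 at -0.70. The shares over all genes were 0.799% higher and 0.307% lower. Of these 20 hepatocyte markers 4 differences were positive, the median was -0.06 and 6 had an unadjusted p under 0.05 in the lower direction, against 3.72% of all genes. Endothelial, lymphocyte and neutrophil, and erythroid markers had 0 calls of 20, 24 and 9 measured in the limma fit, with 3, 1 and 0 at an unadjusted p under 0.05.

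**Figure D4:**
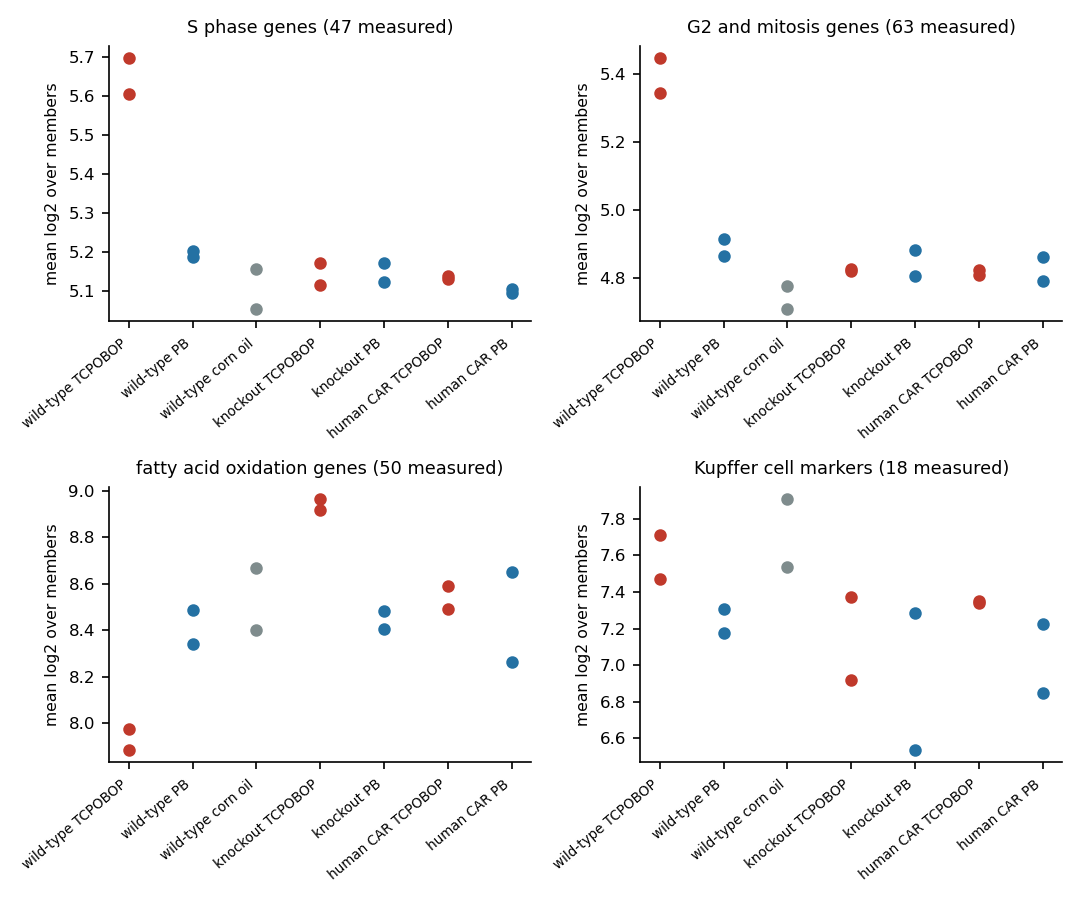
Each point is 1 array's mean log2 level over the measured members of a list, with TCPOBOP in red, phenobarbital (PB) in blue and corn oil in grey. The wild-type TCPOBOP points stand above the rest for S phase genes (5.60 and 5.70) and G2 and mitosis genes (5.45 and 5.34) and below the rest for fatty acid oxidation genes (7.97 and 7.88). The Kupffer cell means overlap between genotypes.

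Among the 38 genes called lower with TCPOBOP, the largest difference was that of Gstp3, a glutathione transferase of the pi class on the list of male-biased genes. Gstp3 read 6.81 and 10.14 with TCPOBOP, 11.53 and 11.44 with phenobarbital and 11.67 and 10.83 with corn oil. The gap between the 2 TCPOBOP mice was wider than the gap from the nearer of them to the phenobarbital mice. The level fell by 3.003 on the log2 scale (SE 0.61, adjusted p = 0.0188). Igf1, the growth factor whose liver transcript follows growth hormone, differed by -0.55 (adjusted p = 0.0102), with 9.90 and 9.79 against 10.43 and 10.37. Its carrier Igfals read 7.72 and 7.23 with TCPOBOP and 8.57 and 8.42 with phenobarbital, without passing the test. In wild-type corn oil livers the list of male-biased genes averaged 9.95 and 9.44. The list of female-biased genes averaged 5.29 and 5.45 there, with 11 and 10 of 21 members below the limit for dim genes. The lists hold different genes, so their levels are not directly comparable, and the sex of the mice was not tested.

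Some enzymes that act on vitamin A and its relatives were among the lower genes. Of 35 measured retinoid genes 3 were called lower, against 0.307% of all genes, and 1 higher, against 0.799%, while 16 differences were positive and the median was -0.05. Rdh16, a retinol dehydrogenase, read 4.58 and 4.51 with TCPOBOP, 6.58 and 6.30 with phenobarbital and 6.77 and 6.16 with corn oil, a difference of -1.89 (SE 0.26, adjusted p = 0.000559). Its relative Rdh16f2 read 5.70 and 5.50 against 7.21 and 7.63, a difference of -1.82. Related dehydrogenases can share probes, and these were not separated. Retsat, which saturates retinol, read 7.55 and 7.34 with TCPOBOP, 9.33 and 8.56 with phenobarbital and 9.57 and 9.54 with corn oil, a difference of -1.50 (adjusted p = 0.00632), and its other probe set gave -1.84. The member called higher was Bco1, which splits beta-carotene, at 0.68, a call that was lost whichever wild-type array of the 4 was left out. Rdh9 read 4.48 and 4.66 against 6.22 and 5.58 and did not pass (adjusted p = 0.0866). Cyp26a1, which degrades retinoic acid, read 9.49 and 9.78 against 9.61 and 9.68, a difference of -0.01 with an interval of -1.03 to 1.02. Without TCPOBOP replicate 2 the lower calls of this list numbered 1, and 2 without either phenobarbital array.

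Most fatty acid oxidation genes read lower with TCPOBOP, and the number that passed depended on the arrays fitted. Of 50 measured 2 were called lower and 0 higher, against 0.307% and 0.799% of all genes. Of the 50 differences 4 were positive and the median was -0.40. An unadjusted p under 0.05 of the limma fit in the lower direction was met by 25, against 3.72% of all genes. The list mean was 7.97 and 7.88 with TCPOBOP, 8.49 and 8.34 with phenobarbital and 8.40 and 8.67 with corn oil. The called members were Acaa1b, a peroxisomal thiolase, with 10.55 and 10.13 against 11.66 and 11.21 (difference -1.10, adjusted p = 0.03), and Slc27a2, which imports and activates fatty acids, at -0.67. Cpt2, a carnitine transferase of mitochondria, differed by -0.75 (adjusted p = 0.0584), and Acadvl, the dehydrogenase of very long chains, by -0.39 (adjusted p = 0.0813). Cyp4a14, a fatty acid hydroxylase, read 3.77 and 3.62 with TCPOBOP, 6.98 and 6.67 with phenobarbital and 4.38 and 7.12 with corn oil. Its corn oil mice were far apart, and its difference of -3.13 did not pass (adjusted p = 0.0605). The count of lower members was 12 from the 8 wild-type arrays, 14 from the 4 arrays compared, 13 with array weights, 8 without the 2 arrays that stood apart, and 0 without phenobarbital replicate 1 or without TCPOBOP replicate 2.

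The drug-metabolising enzymes that are the usual readout of CAR gave calls in both directions. Of 33 measured P450s and partners 0 were called higher and 3 lower, with a median of -0.04, and of 61 conjugation and other enzymes 2 were called higher and 3 lower, with a median of -0.10. The shares over all genes were 0.799% higher and 0.307% lower. Of the P450s 2 had an unadjusted p under 0.05 in the higher and 3 in the lower direction, and of the 61 enzymes 11 and 17, against 5.42% and 3.72% of all genes. Of 23 transporters 0 were called in the limma fit, while 2 had an unadjusted p under 0.05 in the higher and 3 in the lower direction. Cyp2b10, the standard marker of CAR activity, read 12.24 and 12.48 with TCPOBOP, 11.88 and 12.06 with phenobarbital and 4.66 and 5.22 with corn oil. Its difference was 0.38 with a 95% interval of -0.43 to 1.19 (adjusted p = 0.854). Transcripts related to Cyp2b10 may bind its probe set too. Cyp2c55 read 11.98 and 11.94 against 11.01 and 11.74, a difference of 0.58 (interval -0.35 to 1.51). Cyp3a11 differed by 0.04 (interval -0.28 to 0.36), Cyp2c29 by 0.24 (interval -0.15 to 0.63), Cyp1a2 by 0.16 (interval -0.29 to 0.62) and the exporter Abcc3 by 0.08 (interval -0.23 to 0.38). These intervals leave room for differences of up to about the stated bounds and do not show equal action. The glutathione transferase Gstm3 read 12.78 and 12.85 with TCPOBOP and 11.59 and 12.44 with phenobarbital, and the carboxylesterase Ces2a 12.91 and 12.72 against 12.23 and 12.37. Both were higher without overlap, with differences of 0.80 (interval 0.05 to 1.55) and 0.51 (interval 0.10 to 0.93), but their adjusted p-values were 0.417 and 0.302. Gstt3 differed by 0.32, Gadd45b, a stress-induced gene and coactivator of CAR, by 0.15, and Alas1, the first enzyme of heme synthesis, by -0.27, with adjusted p-values of 0.767, 0.936 and 0.933. Cyp7a1, which catalyses the first step of bile acid synthesis, and Pck1, the gluconeogenic carboxykinase, differed by 0.60 and 0.45, with SEs of 0.83 and 0.66. All 17 of these adjusted p-values, the 4 growth and retinoid genes above included, exceeded the threshold.

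Some enzymes of these lists were called. Fmo5, a flavin monooxygenase, read 11.42 and 11.41 with TCPOBOP, 10.19 and 10.49 with phenobarbital and 10.11 and 10.66 with corn oil, a difference of 1.08 (adjusted p = 0.0101). On the lower side stood the P450s Cyp4f14, which hydroxylates leukotrienes and fatty acids, at -1.36, Cyp2c38 at -1.22, Cyp2c23, an arachidonic acid epoxygenase, at -1.15 and Cyp2g1 at -0.79. Cyp2g1 read 4.68 and 4.49 with TCPOBOP, 5.28 and 5.47 with phenobarbital and 4.55 and 4.47 with corn oil, and was the only lower gene whose phenobarbital livers were called above corn oil (adjusted p = 0.00798). The aldehyde oxidase Aox3 differed by -0.90, the carboxylesterase Ces1f by -1.16 and the glycosyltransferases Ugt3a1 and Ugt3a2 by -1.15 and -0.94. Further falls were those of the transporter Abca8a at -1.68, the complement factor H relative Cfhr2 at -1.16, the phosphate transporter Slc17a2 at -1.03, the ribonuclease Ang at -0.86, Abhd14b at -0.84 and Pm20d1, which forms N-acyl amino acids, at -0.83. Il1rap, a subunit of the interleukin 1 receptor, fell by 1.06 on its brightest probe set, whereas its other 2 probe sets differed by 0.01 and 0.09.

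Nr1i3, the gene of the receptor itself, was lower with TCPOBOP. It read 7.03 and 6.84 with TCPOBOP, 7.98 and 7.92 with phenobarbital and 7.58 and 7.37 with corn oil, so corn oil lay between. The difference was -1.01 (SE 0.19, adjusted p = 0.01), a 2.02-fold lower level. It was the only 1 called of 34 measured nuclear receptors and partners, while 0.307% of all genes were called lower. The call held without TCPOBOP replicate 1 and was lost without each of the other 3 arrays, with differences of -1.11 to -0.92.

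Of the endoplasmic reticulum stress genes 1 of 33 was called higher, against 0.799% of all genes, and 26 differences were positive with a median of 0.29. An unadjusted p under 0.05 in the limma fit was met by 15 in the higher and 0 in the lower direction, against 5.42% and 3.72% of all genes. In knockout 4 of the 33 differences were positive (median -0.17), and in human CAR mice 6 were (median -0.27). Hspa5, the main chaperone of that compartment, read 10.93 and 10.84 with TCPOBOP, 9.93 and 10.00 with phenobarbital and 10.47 and 10.72 with corn oil, a difference of 0.92 (adjusted p = 0.0434). Creld2 at 1.15, Hsp90b1 at 0.76 and Calr at 0.59 had adjusted p-values of 0.173, 0.178 and 0.122. The call of Hspa5 was lost with cyclic loess, with the replicate number as a block and without each of the 4 arrays in turn. With the filter for dim genes the list had 7 calls from the 4 arrays compared and 6 from the 8 wild-type arrays. For Hspa5 the phenobarbital livers were the lowest of the 3 groups.

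Corn oil arrays place the differences. Among the 79 higher genes the corn oil mean lay below both treatments in 48 and between them in 31. TCPOBOP was called above corn oil in 66 of the 79 and phenobarbital in 7. Among the 38 lower genes the corn oil mean lay above both in 21, between in 16 and below both in 1, and TCPOBOP was called below corn oil in 31 while phenobarbital was in 0. Over all 9167 genes TCPOBOP was called above corn oil in 306 and below it in 257, and phenobarbital in 82 and 53. These 2 sets of tests share the corn oil mice. The genes were also picked by the same TCPOBOP and phenobarbital arrays, which favours more calls with TCPOBOP and fewer with phenobarbital.

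In knockout mice the same treatments gave 1 called gene of 9167, 0.0109%, while 439 had an unadjusted p under 0.05 in the higher and 508 in the lower direction. That gene was Kdm5a, a histone demethylase, at -1.06 in knockout (adjusted p = 0.00743), and it was also called in wild type at -0.62. Without the 2 arrays that stood apart its knockout difference was -0.95 (adjusted p = 0.0697). The median size of the difference over the 117 genes called in wild type was 0.865 in wild type and 0.120 in knockout, where 57 had the opposite sign. The difference between the genotypes was called for 86 genes, 0.938%, with 50 higher in wild type (0.545%) and 36 lower (0.393%). Of the 86, 52 were among the 117, making 44.4% of the wild-type calls and 60.5% of the 86. All 52 had the sign of the wild-type difference, 36 higher and 16 lower. Both tests use the same wild-type arrays, so overlap and a shared sign were favoured in advance. The 117 genes were also picked for their wild-type difference, which favours the larger median in wild type. Prom1 read 3.78 and 4.29 with TCPOBOP and 4.02 and 3.95 with phenobarbital in knockout, and its genotype difference was 3.02 (adjusted p = 0.000741). For Mki67 it was 1.54 (adjusted p = 0.00228) and for Cdk1 1.12 (adjusted p = 0.0159). Without the 2 arrays that stood apart it was 3.06 for Prom1 (adjusted p = 0.00276), 1.45 for Mki67 (adjusted p = 0.0136) and 1.01 for Cdk1, which no longer passed (adjusted p = 0.0523). Of the S phase genes 7 and of the G2 and mitosis genes 11 were called higher in that test, against 0.484% of all 12393 genes, and 0 lower. The counts were 6 and 8 without the 2 arrays that stood apart and 4 and 5 without wild-type phenobarbital replicate 1. The S phase count was also 4 without knockout TCPOBOP replicate 2. The mitosis count was 6 without wild-type TCPOBOP replicate 1 or knockout phenobarbital replicate 2 and 7 without knockout TCPOBOP replicate 2. Nr1i3 and Retsat did not pass (adjusted p of 0.105 and 0.152). Leaving out knockout phenobarbital replicate 1 raised the knockout count to 395 and the count of genotype differences to 261.

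The fatty acid oxidation list had medians of opposite sign in the 2 genotypes. The median was -0.40 in wild type and 0.39 in knockout, where 47 of 50 differences were positive. The genotype difference was called for 9 of the 50, all lower in wild type, against 0.282% of all genes. Acaa1b read 12.04 and 12.16 with TCPOBOP and 11.11 and 10.91 with phenobarbital in knockout, and its genotype difference was -2.19 (adjusted p = 0.00353). Vnn1, a pantetheinase that tracks fatty acid oxidation, had a genotype difference of -3.88 and Cpt2 one of -1.22. The list mean was 8.96 and 8.92 with TCPOBOP and 8.48 and 8.41 with phenobarbital in knockout. The count of 9 was the same without the 2 arrays that stood apart, but 1 to 12 without a single wild-type or knockout array: 1 without phenobarbital replicate 1, TCPOBOP replicate 2 of wild type or TCPOBOP replicate 2 of knockout, 2 without TCPOBOP replicate 1 or phenobarbital replicate 2 of knockout, and 3 without TCPOBOP replicate 1 or phenobarbital replicate 2 of wild type.

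**Figure D5:**
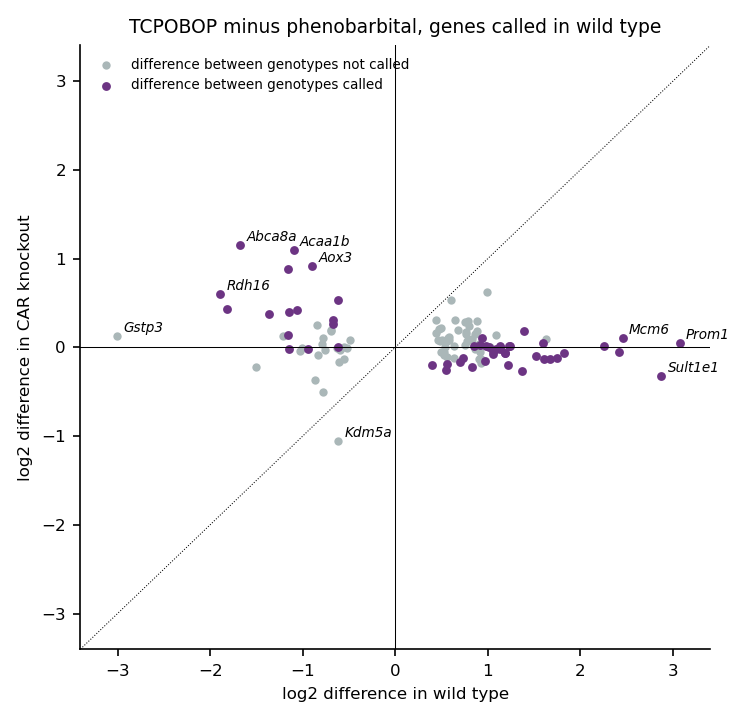
Each point is 1 of the 117 genes called in wild type. The axes are the log2 difference, TCPOBOP minus phenobarbital, in wild type and in CAR knockout, with a dotted line where both are equal. The higher genes lie near 0 on the knockout axis, Abca8a and Acaa1b lie above 1 there and Kdm5a lies at -1.06. The 52 purple points are genes whose difference between genotypes was called.

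In human CAR mice 50 genes were called, 0.545%, 31 higher (0.338%) and 19 lower (0.207%), and 12 without the 2 arrays that stood apart. There several P450s passed the test. Cyp2b10 read 7.02 and 7.59 with TCPOBOP and 11.22 and 11.37 with phenobarbital, a difference of -3.99 (adjusted p = 0.000119), and Cyp2c37, Cyp2c50 and Cyp2c54 differed by -4.43, -2.72 and -2.51. Socs2, an inhibitor of growth hormone signalling, differed by -3.48. Without the 2 arrays that stood apart Cyp2b10 at -4.06, Cyp2c50 at -2.94 and Cyp2c54 at -2.59 still passed, while Cyp2c37 at -4.66 (adjusted p = 0.15) and Socs2 at -3.36 (adjusted p = 0.0655) did not. The difference between wild type and human CAR mice was called for 88 genes, 0.960%, with 45 higher in wild type (0.491%) and 43 lower (0.469%). Without the 2 arrays that stood apart it was called for 46 genes. Of the 88, 54 were among the 117, all with the wild-type sign, which the shared wild-type arrays favour. With all arrays the difference between wild type and human CAR mice was 4.37 for Cyp2b10 (adjusted p = 0.000501) and 3.68 for Prom1. Of the S phase genes 8 and of the G2 and mitosis genes 12 were called higher in wild type in that test, against 0.444% of all 12393 genes, and 6 and 10 without the 2 arrays that stood apart. The counts were 3 and 6 without wild-type phenobarbital replicate 1, and the S phase count was 5 without wild-type phenobarbital replicate 2. Of the fatty acid oxidation and the retinoid genes 3 each were called lower, against 0.347%, and 2 and 1 without those arrays. The cell cycle lists had medians of 0.01 for S phase and -0.03 for G2 and mitosis in human CAR mice. Of the 117 genes 1 was called in human CAR mice.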

How the data were processed

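The deposited table holds log2 values of 22690 probe sets on 24 arrays, which the authors made with RMA in R 2.15.0, per the submitters' processing notes. Total liver RNA of each mouse went on 1 array. No value was missing, array medians ran from 5.41 to 5.51, and no further normalisation was applied. Platform annotation gave 20380 probe sets 1 gene symbol, 691 several and 1555 none, after 64 control probe sets were left out.

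Each of 12393 genes was read by its probe set with the highest mean. A gene was tested if 2 or more arrays showed it above their own percentile 40, which left 9167. With limma 3.58.1 (R 4.3.3) a model of 12 group means was estimated from the 24 arrays, leaving 12 residual degrees of freedom, and p-values were adjusted by Benjamini-Hochberg within a comparison. The comparison uses no corn oil array except for the spread. Whether the mice of a group came from separate litters is not given, so p-values measure the spread between these mice. List counts and medians come from the same fit without the dim filter, except where the filter is named, and were not tested as sets. No set of values was a copy of another: over 276 pairs of arrays the smallest SD of a difference was 0.171.

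Named genes were the 25 largest rises and 20 largest falls without overlap, Prom1, Mki67 and Cdk1, a panel of CAR-responsive and growth genes whatever their p, and up to 10 members of a list (20 for cell cycle lists) by p, with the 10 largest rises and falls of the other comparisons. Of these the text names a part, and Por had no probe set with 1 symbol. The comparison, its markers and the 33 lists were chosen with earlier results of these data known. The wild-type comparison was tried on 20 simulated runs with 200 changed genes each over 9167 genes. In these runs it recovered 90.4% of 2-fold and 98.6% of 4-fold changes, with 4.65% false calls. Whether these shares hold for the measured values was not tested. In the measured wild-type values 43 genes that reached 2-fold were called. Others that reached 2-fold were not, among them Cyp4a14 at -3.13, Krt8 at 1.48 and Krt18 at 1.04. Alternatives were cyclic loess, other dim filters, mean probe sets, a variance trend, array weights, a 2-fold limit, a block for the replicate number, fits to fewer arrays and leaving out each array. A crossed block and list counts without single arrays were added after seeing the data. Promoters come from RefSeq, and figures were drawn with matplotlib 3.10.9 in Python 3.11.15.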

Additional observations from a re-analysis of the deposited data

Results flagged for a closer look

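The difference between TCPOBOP and phenobarbital was itself found to differ between genotypes by the interaction term of the limma fit. It did so for 86 genes between wild type and knockout and for 88 genes between wild type and human CAR mice. The values below are the log2 difference in wild type minus that in the other genotype, for genes named in the report whose adjusted p was under 0.05.

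Against knockout, the cell cycle genes gave Mcm6 2.36, Birc5 1.88, Mki67 1.54, Rrm2 1.62, Stmn1 1.21, Ccnb2 1.23, Mcm5 1.22, Mcm7 1.42, Smc4 1.14, Cdk1 1.12, Pbk 1.10, Pcna 1.00, Mcm2 0.83 and Hmmr 0.89. Other genes with a positive value were Prom1 3.02, Sult1e1 3.20, D17H6S56E-5 2.47, Mical1 2.24, Atr 1.87, Pnliprp1 1.80, Meig1 1.74, Fhit 1.64, Krt4 1.26, Anxa2 1.25, Tuba8 1.16 and Dysf 1.10. Genes with a negative value were Rdh16 -2.49, Rdh16f2 -2.25, Abca8a -2.82, Cyp4f14 -1.74, Ces1f -2.04, Cfhr2 -1.30, Cyp2c23 -1.55, Ugt3a1 -1.13, Acaa1b -2.19, Il1rap -1.48, Ugt3a2 -0.92, Aox3 -1.81, Slc27a2 -0.97, Vnn1 -3.88 and Cpt2 -1.22.

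Against human CAR mice, the cell cycle genes gave Mcm6 2.79, Birc5 1.77, Mki67 1.68, Rrm2 1.49, Stmn1 1.35, Ccnb2 1.23, Mcm5 1.29, Mcm7 1.06, Cdk1 1.03, Pbk 1.17, Ccna2 1.17, Pcna 0.91, Mcm2 1.01, Hmmr 1.12, Ube2c 0.97 and Cdca5 0.78. Other genes with a positive value were Prom1 3.68, Sult1e1 3.10, D17H6S56E-5 2.84, Mical1 2.25, Atr 1.50, Pnliprp1 1.88, Meig1 1.68, Fhit 1.36, Krt4 1.21, Tuba8 1.11, Dysf 1.13, Cyp2b10 4.37, Cyp2c29 1.20, Cyp2c50 2.72 and Cyp2c54 2.48. For Cyp2b10 and the Cyp2c genes among these no wild-type difference passed the test, and the human CAR differences were negative. Genes with a negative value were Rdh16 -2.29, Rdh16f2 -2.05, Cyp4f14 -2.02, Cfhr2 -1.54, Cyp2c23 -1.48, Acaa1b -1.84, Il1rap -1.40, Ugt3a2 -1.02, Aox3 -1.55, Abhd14b -1.49, Pm20d1 -1.49 and Igf1 -0.65.

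Among probe sets without a single gene symbol, which the report does not use, 26 of 2246 were called when all 22626 probe sets were fitted, 19 higher and 7 lower with TCPOBOP than with phenobarbital in wild type. All 22626 together gave 225 calls.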

How the results depend on the processing

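Against the 117 genes called in wild type, other settings gave 131 with cyclic loess, 137 without the dim filter, 94 with a stricter one, 128 with the mean of probe sets and 114 with a variance trend. The count was 331 with array weights, 332 from the 8 wild-type arrays, 369 from the 4 arrays compared, 234 without the 2 arrays that stood apart, 43 at 2-fold and 34 to 70 without 1 array. Its share of higher genes was 67.5%, against 57.2% from the 8 wild-type arrays. In knockout, 1 gene became 4 with cyclic loess, 0 in limma with the stricter dim filter (788 at an unadjusted p under 0.05) or array weights (619), 2 with mean probe sets or without the 2 arrays that stood apart, and 0 to 395 without 1 array. The 395 came without phenobarbital replicate 1, which leaves the array that stood apart alone in its group. In human CAR mice 50 became 17 with array weights, 12 without the 2 arrays, 26 at 2-fold and 3 to 1201 without 1 array, the 1201 again resting on the array that stood apart. Differences between wild type and knockout were 57 at 2-fold and 24 to 261 without 1 array, and cyclic loess turned their split of 50 higher and 36 lower into 38 and 52. Those between wild type and human CAR mice were 46 without the 2 arrays, 57 at 2-fold and 23 to 1029 without 1 array. A group reduced to a single mouse borrows its spread from the remaining groups. The cause of these changes was not tested otherwise.

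Replicate numbers pair no mice by the labels, and with 2 pairs the correlation of replicate differences, 0.341, does not settle it. With the replicate number as a block the counts were 117 in wild type, 105 of them shared, 1 in knockout, 52 in human CAR mice, and 92 and 92 for the differences between genotypes. A crossed block, added after seeing the data, gave 123 in wild type. Among named genes that were called 0 reversed sign under these settings, while some uncalled values near 0 changed sign, as Cyp26a1 (0.14 without TCPOBOP replicate 1) and Cyp3a11 (-0.04 without TCPOBOP replicate 2) did. Precision is limited by 2 mice a group, and dim probe sets can understate folds.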

Other observations

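Cell cycle genes were uneven between the 2 TCPOBOP mice, in both directions. Of 47 S phase genes 31, 66.0%, read higher in TCPOBOP replicate 2 than in replicate 1, while of 63 G2 and mitosis genes 19, 30.2%, did, against 37.8% of all 12393 genes. Mcm6 read 7.59 in replicate 1 and 8.33 in replicate 2, and Mcm4 5.50 and 6.27, whereas Ccna2 read 7.03 and 6.19 and Ube2c 6.46 and 6.00. These 4 were picked after their values were seen, and the mitosis genes Mki67, at 5.08 and 5.39, and Birc5, at 5.54 and 5.64, read higher in replicate 2. In the phenobarbital mice 25 of 47 and 34 of 63 read higher in replicate 2. With 1 mouse on each side these are values without a test.

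Some lists outside the report leaned one way in wild type without a call. Of 54 respiratory chain genes 9 read higher with TCPOBOP, the median was -0.15 and 11 had an unadjusted p under 0.05 in the lower direction, against 3.72% of all genes. Of 19 methionine cycle and one-carbon genes 3 read higher, with a median of -0.21. Of 28 interferon genes 25 read higher, with a median of 0.22, and 5 had an unadjusted p under 0.05 in the higher direction, against 5.42% of all genes. The interferon lean was not particular to wild type: 23 of the 28 were positive in knockout (median 0.26) and 19 in human CAR mice (median 0.11). In the wild-type comparison 0 members of these lists passed the limma test, and 3 methionine cycle genes had an unadjusted p under 0.05, all lower.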
